A study of Sus scrofa with 8 samples.

Results

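PPARA, the nuclear receptor that responds to fatty acids in the liver, was described here together with genes of fatty acid oxidation and ketogenesis in the livers of young and old sows. The set named 8 genes by symbol, which were PPARA, CPT1A, CPT2, ACADM, EHHADH, HADHA, PDK4 and ANGPTL4. Of these, 7 had an identifier among the 21607 mRNAs listed, and EHHADH, for which no identifier was matched, was not analysed here. The Ensembl identifiers were those of PPARA (ENSSSCG00000000006), CPT1A (ENSSSCG00000012880), CPT2 (ENSSSCG00000003851), ACADM (ENSSSCG00000003776), HADHA (ENSSSCG00000008571), PDK4 (ENSSSCG00000015334) and ANGPTL4 (ENSSSCG00000013599). Liver RNA was compared between 2 young sows, 180 days of age, and 2 old sows, 8 years of age, all healthy Yanan pigs of a Chinese breed. The sows shared no recent ancestor, went without food for the night before slaughter and were stunned and bled. The young sows had not yet given birth and the old sows were at the end of reproductive life, so age and reproductive history cannot be told apart. Each sow gave 1 library of RNA depleted of ribosomal RNA. Levels are CPM, reads of a gene scaled to a common library total and not divided by gene length, so levels are compared between livers and never between genes.

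Fasting sends fatty acids from adipose tissue to the liver, where they bind PPARA, which pairs with a retinoid X receptor on DNA and switches on the enzymes that burn them. Long-chain fatty acids are tied to coenzyme A, handed to carnitine by CPT1A at the outer mitochondrial membrane, carried inside by SLC25A20 and handed back to coenzyme A by CPT2. Inside, acyl-CoA dehydrogenases such as ACADM and the trifunctional protein of HADHA and HADHB shorten the chain in repeated rounds, and the acetyl-CoA that results can leave the liver as ketone bodies. PDK4 switches off the pyruvate dehydrogenase complex so that glucose carbon is spared, and ANGPTL4 is a secreted inhibitor of lipoprotein lipase. PPARA is known to induce CPT1A, PDK4 and ANGPTL4.

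The libraries held 37555696 and 37125093 mRNA reads in young livers and 22482241 and 24866406 in old livers. The tissue was read as liver, since all 13 hepatocyte markers with an identifier were above 0 in every library. Their summed level was 48948 and 55957 CPM in young livers and 33664 and 40933 CPM in old livers. Of the 13, 10 were lower in old livers, where 8942 of all 16898 mRNAs tested were lower. In 3 of the 13 both old livers lay below both young livers, beside 25.0% of all mRNAs. All listed mRNAs summed to 408898 and 428910 CPM in young and 365330 and 346173 CPM in old livers. The 5 macrophage markers summed to 232 and 254 CPM in young livers and 340 and 375 CPM in old livers. In bulk tissue, fewer hepatocytes and less RNA per hepatocyte cannot be told apart, and the part of the scaling was not tested. Old replicate 1 stood apart in 20 interferon-stimulated genes, all of them above both young livers there and summing to 2059 CPM against 55.8 to 81.9 CPM in the other libraries. The part of these differences in the results given here was not tested, and values for the members without old replicate 1 are given with them.

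In old livers the core enzymes ACADM and HADHA and the kinase PDK4 stood at lower levels than in both young livers. ANGPTL4 stood higher in both old livers, but old replicate 2 was only 1.06-fold above young replicate 1. CPT2 was also lower in both old livers, but by a margin that depended on the scaling, while PPARA and CPT1A overlapped between the ages. None of the 7 members passed the test across all mRNAs, which was limma with an adjusted p under 0.05 and an absolute log2 fold change above 1. No mRNA of the 16898 tested passed it (0.0%), and 2654 mRNAs (15.7%) had an unadjusted p under 0.05. Log2 fold changes are old minus young on the scale log2(CPM + 1). With 2 libraries a group, the smallest p that an exact permutation test can give is 0.333.

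**Figure D1:**
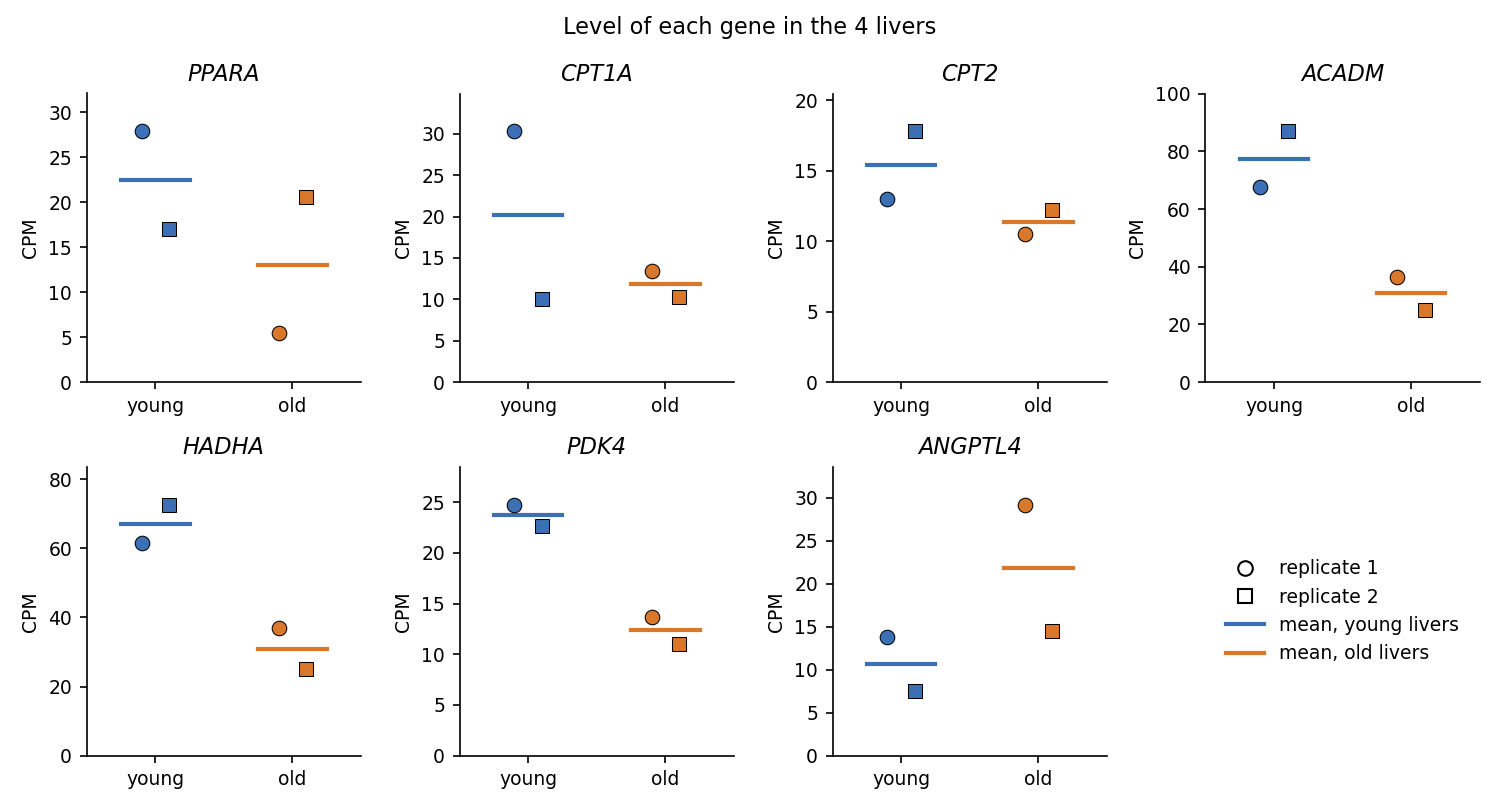
CPM of each member in the 2 young and the 2 old livers, each point 1 library and each bar the mean of the group, with a separate axis for each gene. For ACADM, HADHA, PDK4 and CPT2 both old livers lie below both young livers, for ANGPTL4 both lie above, and for PPARA and CPT1A the ages overlap.

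The level of PPARA varied more between the 2 old livers than between the ages. It was 27.9 and 17.0 CPM in young livers (2561 and 1472 reads) and 5.51 and 20.5 CPM in old livers (339 and 1474 reads). Old replicate 1 was the only low library, 3.72-fold below old replicate 2, which lay between the young livers. The exact Poisson intervals of the 4 levels, which cover counting error only, did not overlap one another, with 26.8 to 29.0 CPM in young replicate 1, 19.5 to 21.6 CPM in old replicate 2, 16.1 to 17.9 CPM in young replicate 2 and 4.94 to 6.13 CPM in old replicate 1. The means were 22.4 ± 7.69 CPM (SD, n = 2) in young and 13.0 ± 10.6 CPM (SD, n = 2) in old livers. The log2 fold change was -0.95 (SE 0.73, 95% interval -3.18 to 1.29, limma adjusted p = 0.617). It was -0.08 without old replicate 1, -1.81 without old replicate 2 and -0.61 when young replicate 1 was left out, so the size of the difference rested on a single liver. Among the 4152 mRNAs with a mean of at least 5 CPM, 7.11% differed between the 2 old livers by as much as PPARA did, 1.73 on the log2 scale.

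HPGD and OIT3 had the patterns most like that of PPARA among 2474 mRNAs with a symbol and a mean of at least 5 CPM. Likeness was the root mean square difference of mean-centred log2(CPM + 1) over the 4 libraries, and it was 0.14 for HPGD and 0.17 for OIT3. HPGD, which inactivates prostaglandins, stood at 46.5 and 38.1 CPM in young and 11.4 and 39.3 CPM in old livers. OIT3 stood at 17.9 and 11.5 CPM in young and 4.29 and 17.8 CPM in old livers. Both shared with PPARA the single low value in old replicate 1, which follows from their choice by likeness over these libraries. Among the 4152 mRNAs with a mean of at least 5 CPM, 12.1% lay more than 1 log2 unit below the young mean in old replicate 1 alone.

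The partners of PPARA were split in direction on CPM, and more of them were higher with TMM scaling. Of 18 listed receptors and coregulators, PPARA included, 17 were tested, and 9 were higher and 8 lower in old livers, with none at an unadjusted p under 0.05. Their median log2 fold change was 0.01, beside -0.02 for all mRNAs, and it ran from -0.11 without young replicate 1 to 0.15 without old replicate 1. With TMM scaling 12 were higher and 5 lower, with a median of 0.19. Of the 17, 5 then lay above both young livers and 0 below both, beside 29.3% and 18.9% of all mRNAs. PPARGC1A, the coactivator induced by fasting, stood at 2.53 and 4.0 CPM in young and 1.66 and 3.10 CPM in old livers. RXRG, a retinoid X receptor, stood at 0.784 and 0.30 CPM in young and 0.910 and 3.01 CPM in old livers (limma adjusted p = 0.483). MED1, a mediator subunit that binds nuclear receptors, stood at 3.85 and 4.80 CPM in young and 3.49 and 3.13 CPM in old livers (limma adjusted p = 0.463). RXRA, the main partner of PPARA in hepatocytes, was not analysed here.

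CPT1A, the gate of the carnitine shuttle, was set apart by a single young liver. It stood at 30.3 and 10.005 CPM in young livers (2784 and 866 reads) and 13.4 and 10.3 CPM in old livers (827 and 742 reads). Young replicate 1 was 3.03-fold above young replicate 2. The counting intervals of young replicate 2 (9.35 to 10.7 CPM) and old replicate 2 (9.60 to 11.1 CPM) overlapped. That of old replicate 1 (12.5 to 14.4 CPM) lay above both. The means were 20.2 ± 14.4 CPM (SD, n = 2) in young and 11.9 ± 2.20 CPM (SD, n = 2) in old livers. The log2 fold change was -0.54 (SE 0.62, 95% interval -2.41 to 1.33, limma adjusted p = 0.735). It turned to 0.22 without young replicate 1 and was -1.29 without young replicate 2.

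CPT2, the inner membrane enzyme of the same shuttle, was lower in both old livers by a small margin. It stood at 13.0 and 17.8 CPM in young livers (1193 and 1542 reads) and 10.5 and 12.2 CPM in old livers (646 and 879 reads). The means were 15.4 ± 3.41 CPM (SD, n = 2) and 11.4 ± 1.23 CPM (SD, n = 2), with a log2 fold change of -0.40 (SE 0.21, 95% interval -1.05 to 0.26). The limma adjusted p was 0.483, the log2 fold change was -0.18 without young replicate 2 and -0.61 without young replicate 1, and the ages overlapped once the values were scaled with TMM or with median-of-ratios factors.

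The carrier between these enzymes differed more than either of them. SLC25A20, which moves acylcarnitine across the inner membrane, stood at 30.3 and 29.5 CPM in young and 10.6 and 9.13 CPM in old livers, a log2 fold change of -1.51 (limma adjusted p = 0.213). CROT, which makes carnitine esters in peroxisomes, stood at 26.9 and 32.5 CPM in young and 17.7 and 21.5 CPM in old livers (log2 fold change -0.58). Of the 8 tested genes of the carnitine shuttle and malonyl-CoA list, CPT1A and CPT2 among them, 7 were lower and 1 higher in old livers. SLC25A20 and CROT were the 2 with an unadjusted p under 0.05. Such a p with a lower level was reached by 8.93% of all mRNAs. Among mRNAs with means from 13.4 to 54.1 CPM, the range of the members, the share was 18.9%. With TMM scaling 5 of the 8 were lower.

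ACADM, the medium-chain acyl-CoA dehydrogenase, differed by the largest log2 fold change among the members on CPM, though not with TMM scaling, edgeR or DESeq2, where ANGPTL4 differed by more, nor without old replicate 2 or young replicate 2. It stood at 67.7 and 87.0 CPM in young livers (6218 and 7529 reads) and 36.6 and 25.1 CPM in old livers (2253 and 1805 reads). Both old livers lay below both young livers, and the mean was 2.51-fold higher in young livers, at 77.3 ± 13.6 CPM (SD, n = 2) against 30.9 ± 8.12 CPM (SD, n = 2). The log2 fold change was -1.31 (SE 0.27, 95% interval -2.13 to -0.49), with a limma p of 0.0138 before and 0.239 after adjustment. Leaving out a library moved it between -1.57 and -1.05.

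HADHA, the subunit of the trifunctional protein that carries its hydratase and long-chain dehydrogenase activities, showed a like pattern. It stood at 61.5 and 72.6 CPM in young livers (5653 and 6285 reads) and 36.9 and 25.1 CPM in old livers (2269 and 1804 reads). The means were 67.1 ± 7.82 CPM (SD, n = 2) in young and 31.0 ± 8.31 CPM (SD, n = 2) in old livers, 2.16-fold apart without overlap. The log2 fold change was -1.11 (SE 0.25, 95% interval -1.88 to -0.34), with a limma p of 0.0184 before and 0.249 after adjustment.

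The levels of ACADM and HADHA ran in parallel through the 4 livers. The ratio of ACADM to HADHA was 1.1 and 1.2 in young and 0.993 and 1.0 in old livers, the most alike of the 21 pairs of members. HADHB, the thiolase subunit of the same complex and the neighbour of HADHA on the chromosome, stood at 20.3 and 24.6 CPM in young and 11.6 and 9.61 CPM in old livers (log2 fold change -1.01, limma adjusted p = 0.223). The ratio of HADHA to HADHB was 3.04 and 2.96 in young and 3.17 and 2.61 in old livers. The members least alike were PPARA and ANGPTL4.

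The list of mitochondrial beta-oxidation leaned to lower levels in old livers, by an amount that depended on the scaling. Of 18 listed genes, ACADM and HADHA included, 16 were tested, and 11 were lower and 5 higher, with a median log2 fold change of -0.52. In 10 of the 16 both old livers lay below both young livers, against 25.0% of all mRNAs. Among the 1351 mRNAs at the level of the members, with means from 13.4 to 54.1 CPM, that share was 39.2%. An unadjusted p under 0.05 with a lower level was seen in 8, against 8.93% of all mRNAs and 18.9% at that level. The single gene at an unadjusted p under 0.05 with a higher level was ETFB, beside 6.78% of all mRNAs. With TMM scaling 8 lay below and 4 above, beside 18.9% and 29.3% of all mRNAs. The median was then -0.32, and 28.5% of mRNAs at the level of the members lay below. ACAA2, the thiolase of the last step, stood at 469 and 346 CPM in young and 97.8 and 111 CPM in old livers (log2 fold change -1.94, limma adjusted p = 0.213).

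The genes that take electrons from the acyl-CoA dehydrogenases differed in direction. ETFB, the beta subunit of the flavoprotein that takes up their electrons, stood at 73.1 and 68.1 CPM in young and 218 and 181 CPM in old livers (log2 fold change 1.48, limma adjusted p = 0.213). Its partner subunit ETFA stood at 45.2 and 56.9 CPM in young and 30.1 and 34.1 CPM in old livers (log2 fold change -0.65, limma adjusted p = 0.278). ETFDH, which passes the electrons to the respiratory chain, stood at 44.6 and 44.0 CPM in young and 23.0 and 22.2 CPM in old livers (log2 fold change -0.94). ETFA and ETFDH were named after their values were seen.

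The dehydrogenases of other chain lengths did not all share the lower level. HADH, the short-chain hydroxyacyl-CoA dehydrogenase, stood at 57.6 and 55.1 CPM in young and 53.7 and 84.6 CPM in old livers, without separation by age. ACADS, the short-chain acyl-CoA dehydrogenase, which was named after its values were seen, stood at 84.6 and 79.3 CPM in young and 81.1 and 86.0 CPM in old livers. ACADVL, the very long-chain enzyme, was listed at 0 and 0.231 CPM in young and 0.552 and 0.028 CPM in old livers. A level this low for an enzyme that liver is known to use was not examined further, and nothing is read from it.

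**Figure D2:**
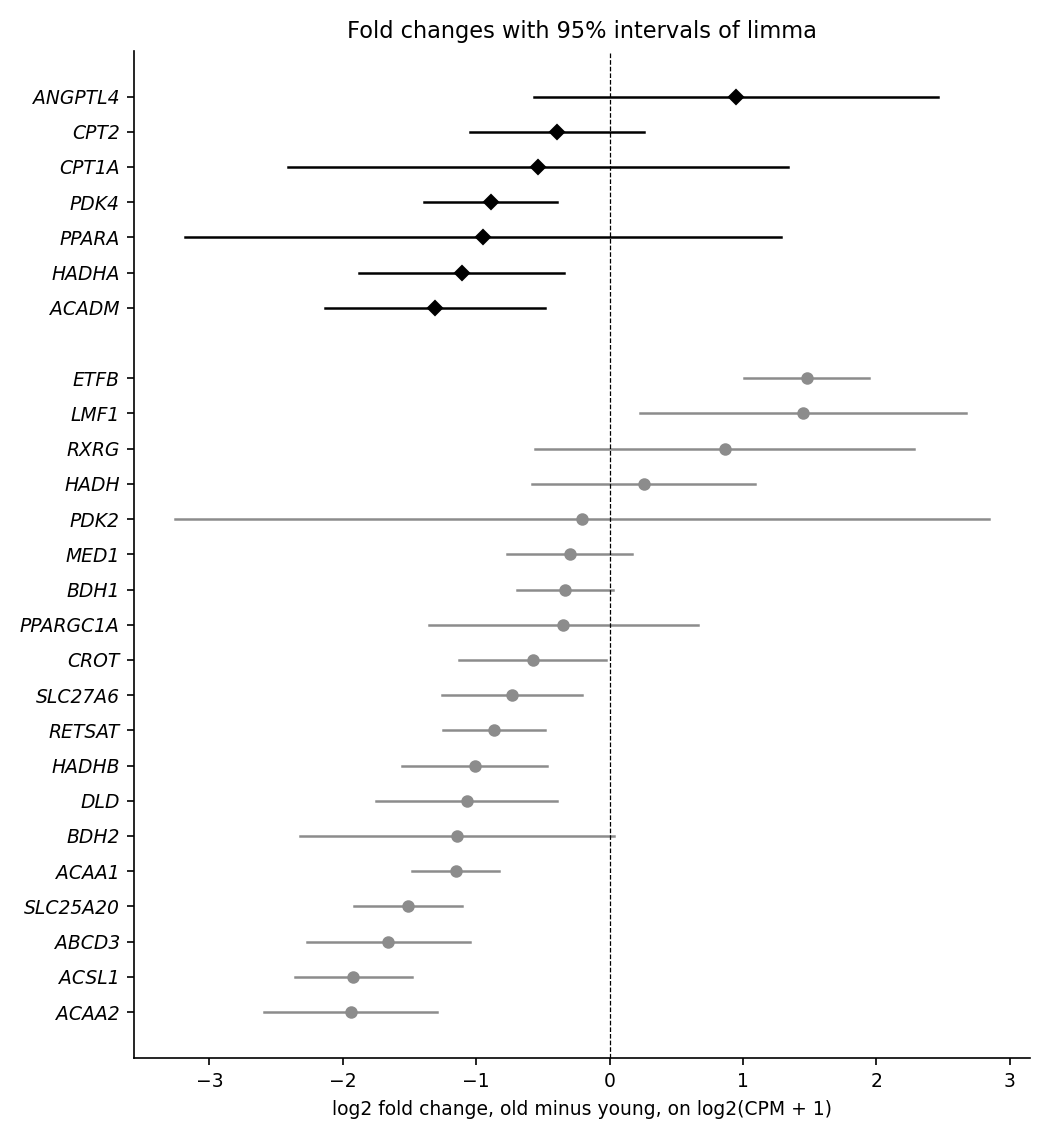
Log2 fold change, old minus young on the scale log2(CPM + 1), of the members (black diamonds) and of other named pathway genes (grey circles), with bars for the 95% intervals from limma without adjustment for the number of genes. The intervals of ACADM, HADHA and PDK4 lie below 0, those of PPARA, CPT1A, CPT2 and ANGPTL4 cross it, and ETFB and LMF1 lie above it.

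EHHADH, the bifunctional enzyme of peroxisomal beta-oxidation, could not be compared, and the rest of the peroxisomal list was read in its place. Of 20 listed genes 15 were tested, and 12 were lower and 3 higher in old livers, with a median log2 fold change of -0.46, or -0.14 without old replicate 1 and -0.71 without old replicate 2, and 9 with both old livers below both young livers, beside 25.0% of all mRNAs and 39.2% of those at the level of the members. With TMM scaling 6 lay below, beside 18.9% of all mRNAs and 28.5% at the level of the members, and the median was -0.26. ACAA1, the peroxisomal thiolase, stood at 176 and 178 CPM in young and 78.6 and 79.6 CPM in old livers (log2 fold change -1.15, limma adjusted p = 0.213). ABCD3, a transporter of the peroxisomal membrane, stood at 21.1 and 28.9 CPM in young and 6.99 and 7.31 CPM in old livers (log2 fold change -1.66). These 2 genes were low in both old livers.

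No tested gene of ketone body metabolism reached an unadjusted p under 0.05, beside 15.7% of all mRNAs. Of 11 listed genes 8 were tested, and 6 were lower and 2 higher in old livers. In 5 of the 8 both old livers lay below both young livers, and in 0 both lay above. Of all mRNAs 25.0% lay below, and of those at the level of the members 39.2% did. With TMM scaling 3 lay below and 1 above. Fold changes of the 8 had a median of -0.19 on the log2 scale, or -0.38 without old replicate 2 and -0.12 without young replicate 1. It was -0.11 with TMM scaling and -0.47 with a pseudocount of 0.1. Over the 5 genes with a mean of at least 1 CPM it was -0.34. BDH1, which reduces acetoacetate to beta-hydroxybutyrate, stood at 45.1 and 48.4 CPM in young and 35.6 and 37.9 CPM in old livers (log2 fold change -0.34, limma adjusted p = 0.339). BDH2, a related cytosolic dehydrogenase, stood at 12.2 and 15.4 CPM in young and 3.88 and 8.09 CPM in old livers (limma adjusted p = 0.327).

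PDK4 separated the ages with the smallest error among the members. It stood at 24.8 and 22.6 CPM in young livers (2275 and 1960 reads) and 13.7 and 11.0 CPM in old livers (843 and 792 reads). The means were 23.7 ± 1.50 CPM (SD, n = 2) in young and 12.4 ± 1.89 CPM (SD, n = 2) in old livers, 1.92-fold apart. The log2 fold change was -0.89 (SE 0.16, 95% interval -1.39 to -0.40), with a limma p of 0.0096 before and 0.228 after adjustment. Over all alternative settings it stayed between -1.04 and -0.70.

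The list of pyruvate dehydrogenase control held subunits of the complex that PDK4 switches off and also its kinases and phosphatases. It leaned to lower levels, with 2 genes, PDK4 and DLD, at an unadjusted p under 0.05. Such a p with a lower level was reached by 8.93% of all mRNAs and 18.9% of those at the level of the members. All 10 tested genes of the pyruvate dehydrogenase list, PDK4 included, had a lower mean log2 level in old livers, with a median log2 fold change of -0.50, and in 5 of them both old livers lay below both young livers, beside 25.0% of all mRNAs and 39.2% of those at the level of the members. With TMM scaling 9 of the 10 were lower and 4 lay below, beside 18.9% of all mRNAs and 28.5% at the level of the members. PDHA1, a subunit named after its values were seen, stood at 29.4 and 26.1 CPM in young and 27.1 and 27.0 CPM in old livers. DLD, the dihydrolipoamide dehydrogenase subunit, stood at 8.77 and 8.47 CPM in young and 2.84 and 4.44 CPM in old livers (log2 fold change -1.07, limma adjusted p = 0.240). PDK2, another kinase of the complex, stood at 12.1 and 21.0 CPM in young and 5.31 and 33.1 CPM in old livers, on either side of the young values.

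ANGPTL4 was the only member with a higher level in old livers. It stood at 13.8 and 7.52 CPM in young livers (1264 and 651 reads) and 29.2 and 14.5 CPM in old livers (1796 and 1045 reads). Old replicate 1 was the high library, and old replicate 2 was only 1.06-fold above young replicate 1, their counting intervals overlapping. The means were 10.6 ± 4.41 CPM (SD, n = 2) in young and 21.9 ± 10.3 CPM (SD, n = 2) in old livers, a ratio of 2.05. The log2 fold change was 0.95 (SE 0.50, 95% interval -0.57 to 2.46, limma adjusted p = 0.473), and it was 0.47 without old replicate 1, 0.55 without young replicate 2 and 1.43 without old replicate 2. ANGPTL4 is also made by adipocytes, and the 2 adipocyte markers with an identifier, PLIN1 and LIPE, summed to 0.141 and 0.012 CPM in young and 0.503 and 0.543 CPM in old livers, each of them higher in both old livers. Their part in the result was not tested.

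The list of angiopoietin-like proteins and lipases around ANGPTL4 was split in direction. LMF1, which helps lipases mature, stood at 3.59 and 3.0 CPM in young and 7.38 and 15.4 CPM in old livers (log2 fold change 1.45, limma adjusted p = 0.276). Of the 6 tested genes of this list, ANGPTL4 included, 3 were higher and 3 lower, with a median of -0.05 that became 0.13 with TMM scaling and 0.04 without young replicate 2.

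Upstream of the members, the list of fatty acid uptake and activation was split in direction. ACSL1, the main long-chain acyl-CoA synthetase of liver, stood at 381 and 353 CPM in young and 89.0 and 104 CPM in old livers (log2 fold change -1.92, limma adjusted p = 0.213). SLC27A6, a fatty acid transport protein, stood at 2.37 and 2.58 CPM in young and 0.861 and 1.35 CPM in old livers (log2 fold change -0.73, limma adjusted p = 0.254). Of the 10 tested genes of uptake and activation, 6 were higher and 4 lower, with a median log2 fold change of 0.12 that became -0.51 over the genes with a mean of at least 1 CPM and ran from 0.04 without young replicate 1 to 0.32 without old replicate 2. On whole reads it was 0.69 in both edgeR tests and 0.66 in DESeq2. In 5 of the 10 both old livers lay above both young livers and in 3 both lay below, beside 24.4% and 25.0% of all mRNAs. An unadjusted limma p under 0.05 was seen in 2 higher and 3 lower genes, beside 6.78% and 8.93% of all mRNAs. The 2 higher genes were SLC27A1 and FABP5, named after their values were seen. SLC27A1 stayed under 1 CPM in every library. FABP1 and CD36 were not analysed here.

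Other genes known as targets of PPARA were mixed. Of 31 listed, CPT1A, PDK4 and ANGPTL4 included, 19 were tested, and 11 were lower and 8 higher in old livers, with a median log2 fold change of -0.54 that was -0.07 without old replicate 1. RETSAT, a retinol saturase, stood at 36.6 and 41.4 CPM in young and 20.9 and 20.9 CPM in old livers (log2 fold change -0.87, limma adjusted p = 0.213). FGF21, the hormone that PPARA induces in the fasting liver, was listed at 0.163 and 0 CPM in young and 1.72 and 0.056 CPM in old livers, so that its only value above 1 CPM was in old replicate 1. PLIN2 was not analysed here.

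**Figure D3:**
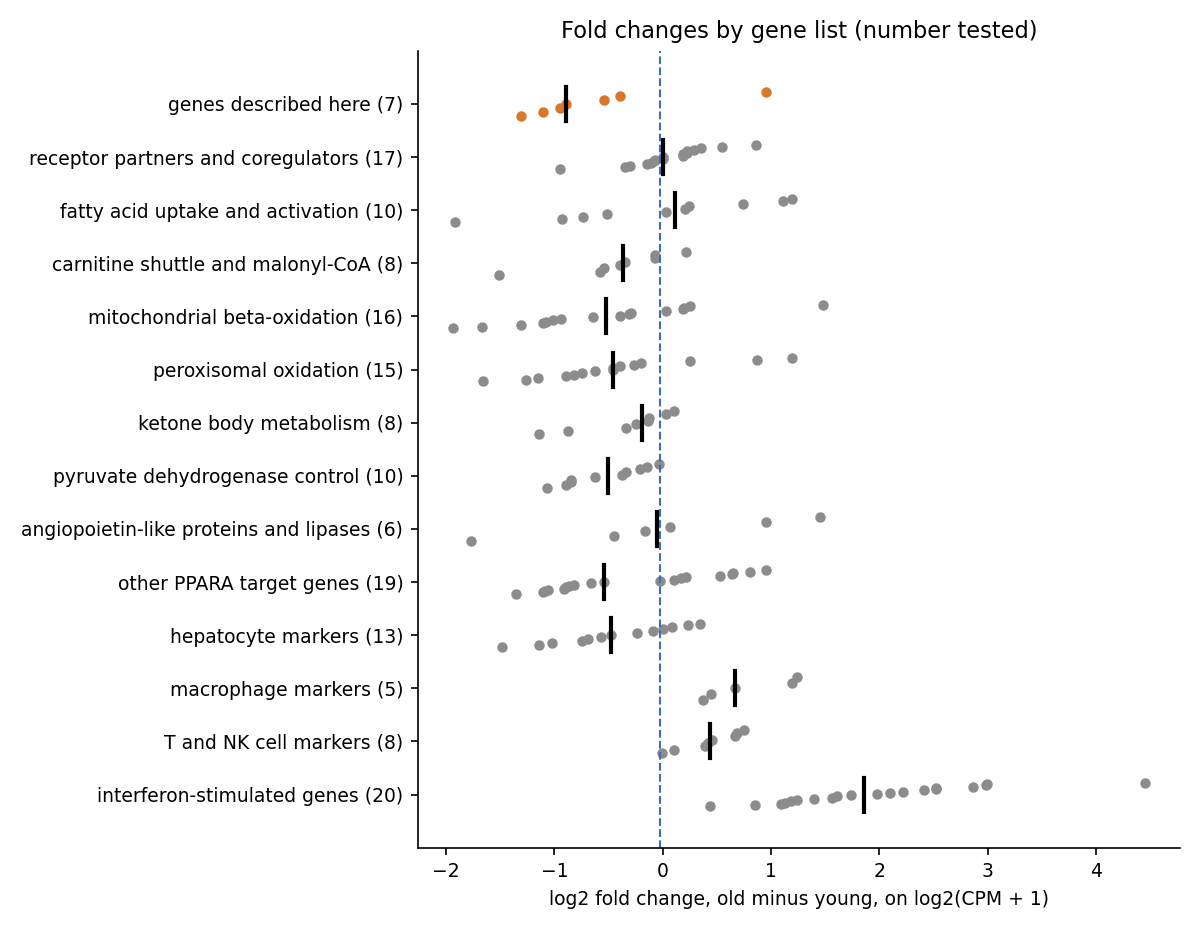
Log2 fold change of every tested gene, old minus young on the scale log2(CPM + 1), for the members (orange), the pathway lists, which also hold the members, and 4 marker lists, each point 1 gene, each bar the median of its list and the dashed line the median of all mRNAs (-0.02). The medians of the pathway lists run from -0.54 in the other PPARA target genes to 0.12 in uptake and activation, with genes on both sides of 0 in every pathway list but that of pyruvate dehydrogenase control.

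Read against all mRNAs, the members leaned to lower levels in old livers. Of the 7, 6 had a negative and 1 a positive log2 fold change, with a median of -0.89 beside -0.02 for all mRNAs. In 4 members both old livers lay below both young livers (25.0% of all mRNAs) and in 1 both lay above (24.4%). ACADM, HADHA and PDK4 had an unadjusted limma p under 0.05 with a lower level, 3 of 7 beside 8.93% of all mRNAs. The background was higher among the 1351 mRNAs of like level, with means from 13.4 to 54.1 CPM, where 39.2% had both old livers below, 17.0% had both above and 18.9% had an unadjusted p under 0.05 with a lower level, with a median log2 fold change of -0.29. Beside mRNAs of like level, the count of 4 of 7 members below both young livers is not read as a result about the members.

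The count also depended on the scaling. With TMM scaling 3 members lay below, 1 lay above and 3 overlapped, beside 18.9% of all mRNAs below and 29.3% above. The log2 fold changes were then -1.11 for ACADM, -0.91 for HADHA, -0.70 for PDK4 and 1.14 for ANGPTL4, and the first 3 again had an unadjusted p under 0.05 with a lower level, beside 5.65% of all mRNAs. That count of 3 was not kept in every setting. It was 1, ACADM alone, in both edgeR tests and without young replicate 1. It was 2 without old replicate 2 (ACADM and PPARA) and without young replicate 2 (CPT1A and PDK4). In DESeq2 it was 3, with ANGPTL4 in addition at a higher level. Without old replicate 1 the log2 fold changes on CPM were -1.57 for ACADM, -1.38 for HADHA, -1.04 for PDK4, -0.29 for CPT2 and -0.71 for CPT1A. Over all mRNAs scaling with TMM turned the split at an unadjusted p under 0.05 from 1145 higher and 1509 lower to 1497 higher and 955 lower.

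The 98 other genes of the pathway lists were more often lower than higher in old livers. Of them 63 were lower and 35 higher in old livers, with a median log2 fold change of -0.20 that became -0.07 with TMM scaling. In 39 both old livers lay below and in 15 both lay above the young livers, and 18 had an unadjusted p under 0.05 with a lower level against 6 with a higher one, where the shares of all mRNAs are 25.0%, 24.4%, 8.93% and 6.78%. At the level of the members 39.2% of mRNAs lay below, 17.0% lay above and 18.9% had such a p with a lower level, near the counts in the 98. The 98 were of lower level, with a median log2(CPM + 1) from 2.43 to 2.98 over the libraries, against 3.88 to 4.85 in the members. No background of their own level was drawn, so these counts are not read as a result about the 98. With TMM scaling 29 of the 98 lay below and 22 above, beside 18.9% and 29.3% of all mRNAs. The lists were drawn up with earlier results of these data known, so these counts are a description.

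The 2 old livers shared some of their low genes and not others. Of 60 pathway genes with a mean of at least 5 CPM, 15 lay more than 1 log2 unit below the young mean in old replicate 1 alone, 6 in old replicate 2 alone and 8 in both. Among all 4152 mRNAs with such a mean the shares were 12.1%, 4.96% and 5.83%. PPARA was in the first of these groups, and HADHA and PDK4 in the second, though both were lower in old replicate 1 as well, by less than that limit. ACADM was in the group of both, with ACSL1, ACAA2 and SLC25A20. The median difference from the young mean was -0.74 in old replicate 1 and -0.29 in old replicate 2. CAT, the catalase of peroxisomes, stood at 386 CPM in old replicate 1 and 1415 CPM in old replicate 2, beside 979 and 1319 CPM in young livers. CYP7A1, the rate-limiting enzyme of bile acid synthesis, stood at 0.829 CPM in old replicate 1 and 34.7 CPM in old replicate 2, beside 2.72 and 12.0 CPM in young livers. CAT, CYP7A1 and FADS2, a fatty acid desaturase, were chosen for labels in the plot of the 2 old livers after their values were seen.

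**Figure D4:**
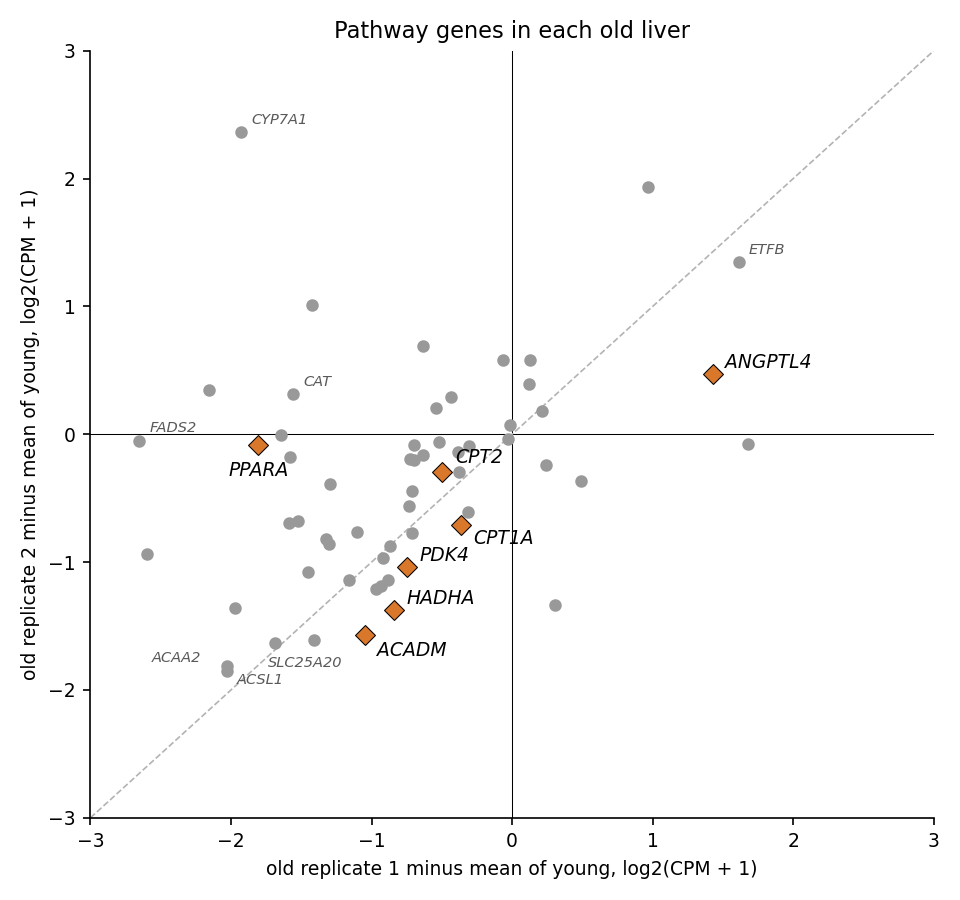
Difference of each old liver from the mean of the young livers on the scale log2(CPM + 1), old replicate 1 on the horizontal and old replicate 2 on the vertical axis, each point 1 of 60 pathway genes and diamonds the members. PPARA lies far to the left but near 0 on the vertical axis, ACADM and HADHA lie below 0 on both axes, and ANGPTL4 lies above 0 on both.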

How the data were processed

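RNA-seq of 4 livers was used; miRNA, lncRNA and circRNA tables were not used here. Clean reads were aligned by the authors to Sscrofa10.2 with TopHat2 2.0.14, assembled with StringTie 1.2.3 and quantified with Salmon 0.6.0. The deposited values are named TPM but behave as CPM, since at least 99.96% of them were whole multiples of 1 step per library (tolerance 0.00051 CPM). Whole reads were recovered from that step. No length enters the values, and the treatment of shared or antisense reads is not given in the sources used here. Symbols matched 11654 of 21607 identifiers in the gene name table.

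Members and lists were chosen with earlier results of these data known. limma 3.58.1 in R 4.3.3 was fitted to log2(CPM + 1) for the mRNAs seen above 0 in 2 or more libraries, its p-values were adjusted by Benjamini-Hochberg, and it was tested on simulated data with 200 changed genes. Alternatives were another pseudocount, other filters, TMM and median-of-ratios scaling, a mean-variance trend, edgeR 4.0.16 and DESeq2 1.42.0 on whole reads, a replicate block and leaving out each library. Named genes were all members, the 2 smallest unadjusted p-values in each list with a mean of at least 1 CPM, 17 chosen pathway genes and the 3 most like PPARA; others are marked. Some of these genes are not reported here. Ranges of Poisson intervals are at 95%. Lists of other cell types were read as summed levels. Python 3.11.15, numpy 2.4.6, pandas 2.3.3 and matplotlib 3.10.9 were used.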

Additional observations from a re-analysis of the deposited data

How the results depend on the processing

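None of the 7 members passed the test under any of 14 alternatives, and of their 98 values 1 changed sign, that of CPT1A, which ran from -1.29 without young replicate 2 to 0.22 without young replicate 1. No mRNA passed in limma (2654 at an unadjusted p under 0.05) or in the quasi-likelihood test of edgeR. With a mean of at least 1 CPM required, 2 mRNAs passed and 1518 had an unadjusted p under 0.05. The exact test of edgeR called 545 mRNAs (464 higher and 81 lower) and DESeq2 called 880 (683 higher and 197 lower), no member among them. The median of the members was -0.58 in both edgeR tests, where the median of all mRNAs lay at 0.12. With 1 library left out, no mRNA passed, 1435 to 2157 had an unadjusted p under 0.05, with the lowest count without old replicate 1, and the median of the members ran from -0.99 to -0.61. These fits assume that the lone library varies like those of the other group. The replicate numbers were not read as pairs, since the sows were unrelated. Deviations of same-numbered libraries from the age means correlated at 0.09 across 16898 mRNAs, a single value that cannot show whether such libraries shared handling. With a replicate block 0 mRNAs passed and 2425 had an unadjusted p under 0.05, with 3 members lower and ANGPTL4 higher among them. The median of the members was then -0.89. Reads of old livers were fewer, and every member kept at least 339 reads in each library.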

Other observations

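The other marker lists gave the following summed levels. The 8 T and NK cell markers summed to 9.14 and 11.8 CPM in young and 21.3 and 15.5 CPM in old livers, and the 4 endothelial markers to 33.9 and 30.4 CPM in young and 66.2 and 38.4 CPM in old livers. The 4 B and plasma cell markers summed to 2.56 and 4.50 CPM in young and 12.4 and 2.42 CPM in old livers. The 6 stellate cell and fibroblast markers summed to 18.6 and 36.9 CPM in young and 13.3 and 51.3 CPM in old livers. The 4 erythroid markers summed to 622 and 429 CPM in young and 308 and 407 CPM in old livers. Skeletal muscle and cholangiocyte markers, 3 of each, stayed at or under 2.33 CPM in every library.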
